A study of Mus musculus with 4 samples.

Results

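The genes described here are 47 genes of mitosis in the mouse melanoma line B16F1. They cover the transcription factors of the G2 and M phases, the kinases and cyclins of mitotic entry, the spindle checkpoint, the kinetochore, the spindle motors, the chromosomal passenger complex, the cytokinesis proteins, condensin and the anaphase machinery. The list was set by gene symbol and function, and all 47 were found among the 39179 genes listed in the counts. This list and the other gene lists below were chosen with earlier results of these data known. Their shares beside all genes are therefore descriptions and not independent support. RNA was sequenced from 4 libraries. The 2 control libraries hold parental B16F1 cells, which are grown in 2D culture, and the 2 TRC libraries hold tumor repopulating cells, which form multicellular spheroids when B16F1 cells are seeded singly in soft 3D fibrin gels. Neither group carries a labelled genetic change or drug, and both derive from 1 established cell line of C57BL/6 origin. Growth in a 3D gel and the selection of cells that form spheroids cannot be told apart in this design. The libraries of both groups are numbered 1 and 3. Nothing in the sources says that they came from separate cultures, so the p-values measure the spread between these samples, which may be technical.

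Cells enter mitosis when CDK1 pairs with cyclin B and is freed of its inhibitory phosphates. Kinetochores then couple the centromeres to spindle microtubules, and the spindle checkpoint holds the anaphase-promoting complex back until every chromosome is attached. Most of the genes involved are transcribed in late S phase, G2 and M, through the factors FOXM1 and B-MYB (*Mybl2*) acting with the MuvB complex, and their transcripts fall again in G1. In a growing culture their RNA levels therefore follow how many cells are in these phases. In bulk RNA, fewer dividing cells and less RNA of these genes per cell cannot be told apart.

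Between 35948295 and 43511554 counts fell on genes in each library, and every one of the 47 genes had at least 493 counts in every library. Values are TMM-scaled CPM, the counts of a gene relative to the summed counts of the genes tested in its library, scaled by TMM. TRCs were compared with control cells by the exact test of edgeR, and p-values were adjusted by Benjamini-Hochberg over the 11483 genes tested (FDR). A gene is called a DEG at an FDR under 0.05. Standard errors (SE) and 95% intervals of the log2 fold change of TRC over control come from DESeq2. All 7 melanocyte markers were expressed, with a summed level of 15712 to 18915 CPM in control cells and 23969 to 26669 CPM in TRCs. Of them only *Dct* was called higher, at a mean of 5014 CPM in control cells and 10591 CPM in TRCs (FDR = 0.000307). The part of the summed difference in the results below was not tested. Of 5 leukocyte markers, *Ptprc*, *Adgre1* and *Cd3e* had no count in any library, and the list summed to 1.76 to 4.12 CPM in control cells and 1.59 to 1.85 CPM in TRCs. The sums were 9.83 to 11.4 against 3.10 to 5.65 CPM for 5 fibroblast markers, and 0.112 to 0.198 against 0.0481 to 0.144 CPM for 4 endothelial markers, among which *Cdh5* and *Kdr* were at 0. For 4 epithelial markers they were 0.453 to 0.607 against 0.577 to 1.83 CPM.

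Of the 47 mitosis genes, 44 (93.6%) had a lower estimate in TRCs than in parental B16F1 control cells, against 49.7% of all genes tested, and 3 had a higher one. The median log2 fold change was −0.42, which is 74.6% of the control level, against 0.00 over all genes tested. Estimates ranged from −1.20 for *Mybl2* to 0.62 for *Pttg1*. At an FDR under 0.05, 5 genes fell: *Foxm1*, *Mybl2*, *Birc5*, *Incenp* and *Kif20a*. These are 10.6% of the list, against 7.05% of all genes tested that were called lower. No member was called higher, against 8.81% of all genes. At an unadjusted p under 0.05 of the exact test, 18 members were lower (38.3%, against 13.2% of all genes). At the same threshold 1 member was higher, against 1703 of the 11483 genes. With tagwise dispersions shrunk toward the common value, the setting of a first run, the exact test called only *Foxm1* and *Mybl2*. That setting called 651 of the 11483 genes lower. DESeq2's Wald test called 10 members lower (21.3%, against 8.24% of all genes) and edgeR's quasi-likelihood test called 2 (4.26%, against 4.24%), and neither called a member higher. The number of DEGs in the list thus stood close to the background in both edgeR tests. It was also set by single libraries, with 1 DEG without control replicate 3 (*Mybl2*), 1 without TRC replicate 3 (*Mybl2*), 3 without TRC replicate 1 (*Foxm1*, *Mybl2* and *Cenpe*, which is not among the 5) and 9 without control replicate 1.

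The shift was broad and small. In 35 of the 47 genes (74.5%) both TRC libraries lay below both control libraries, which holds for 30.4% of all genes tested. *Ccnb2* and *Pttg1* were the 2 genes (4.26%) with both TRC libraries above both control libraries, against 30.2% of all genes. The groups overlapped in the other 10, which were *Cdc25b*, *Bub1*, *Bub3*, *Cenpa*, *Cenpf*, *Kif2c*, *Aurkb*, *Ncaph*, *Mki67* and *Ube2c*.

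**Figure D1:**
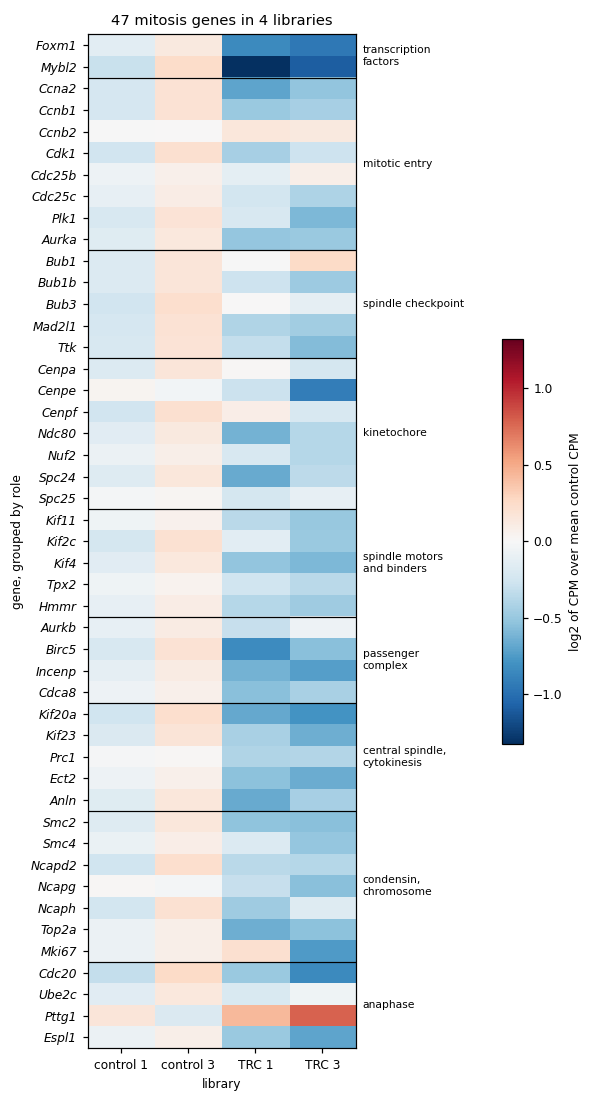
Level of each of the 47 mitosis genes (rows, by role) in the 4 libraries (columns), as log2 of its CPM over the mean CPM of the 2 control libraries, with blue below and red above that mean. The TRC columns are blue for most genes, *Ccnb2* and *Pttg1* are red in both, and control replicate 3 is redder than control replicate 1 for 44 of the 47.

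The control libraries differed from each other in the same genes. Control replicate 3 was above control replicate 1 in 44 of the 47 genes (93.6%), against 50.4% of all genes tested, with a median log2 difference of 0.29. The TRC libraries differed less, with a median of −0.07 for replicate 3 over replicate 1, and 19 genes were higher and 28 lower. The size of the decrease therefore depended on the control library. Against control replicate 1 the median log2 difference over the list was −0.23 for TRC replicate 1, with 39 genes below 0, and −0.31 for TRC replicate 3, with 38 below 0. Against control replicate 3 it was −0.50 for TRC replicate 1, with 44 genes below 0, and −0.60 for TRC replicate 3, with 43 below 0. All 4 medians were negative. The median fold change over the list was −0.26 without control replicate 3 and −0.56 without control replicate 1.

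**Figure D2:**
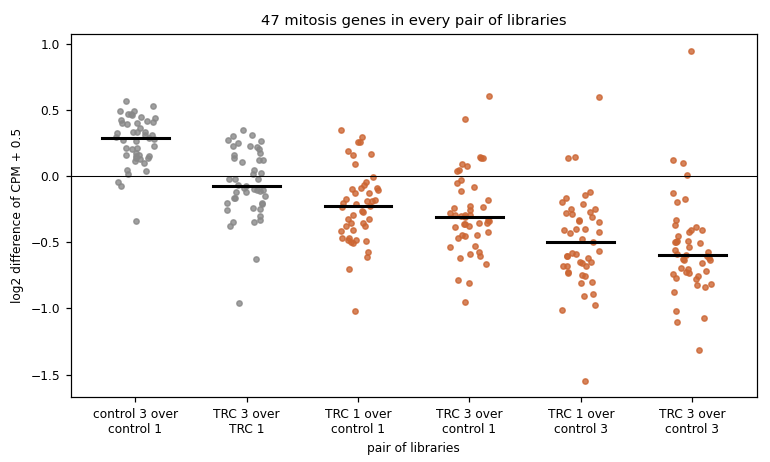
Log2 difference in CPM (plus 0.5) for each of the 47 genes (points) in every pair of libraries, with replicates of the same group in grey, TRC over control in orange and the median as a black bar. The medians are −0.23 and −0.31 against control replicate 1 and −0.50 and −0.60 against control replicate 3, beside 0.29 between the 2 control libraries.

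The 2 transcription factors fell most clearly. *Foxm1* (ENSMUSG00000001517, GRCm38 chr6:128362967-128376146) encodes the forkhead factor that switches on the G2 and M phase genes. It stood at 275 and 330 CPM in control replicates 1 and 3 and 168 and 157 CPM in TRC replicates 1 and 3. Both TRC libraries were well below both control libraries, at 53.7% of the control level (log2 fold change −0.90, SE 0.20, FDR = 0.00197). Without control replicate 3 the FDR was 0.0603 and without TRC replicate 3 it was 0.069, with estimates between −1.02 and −0.76 over the 4 omissions.

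*Mybl2* (ENSMUSG00000017861, chr2:163054687-163084688) encodes B-MYB, which joins the MuvB complex in S phase and recruits FOXM1. It was measured at 49.4 and 71.4 CPM in control replicates 1 and 3 and at 24.1 and 28.4 CPM in TRC replicates 1 and 3. The groups were far apart, and the level in TRCs was 43.5% of that in control cells (log2 fold change −1.20, SE 0.27, FDR = 0.000149). Of the 5 DEGs it was the one that kept an FDR under 0.05 whichever library was omitted, at up to 0.0298. *Foxm1* and *Mybl2* were also the 2 genes called by the quasi-likelihood test.

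Genes of this list are known to carry 2 kinds of short element near their start site, the cell cycle genes homology region (CHR) bound by MuvB and the CCAAT box bound by NF-Y. RefSeq start sites (GRCm38.p6) were matched for 38 of the 47 genes, and the 250 bases before each start were searched on both strands. The letters searched were TTTGAA and TTTAAA for the CHR and CCAAT for the CCAAT box. A gene was counted when any of its start sites had a match, and matches that shared bases were each counted. TTTGAA was found in 15 of the 38 (39.5%), against 18.3% of the 27025 genes of the same table, and TTTAAA in 6 (15.8%, against 13.7%). CCAAT was found in 29 (76.3%, against 37.5%), and 19 of the 38 had 2 or more in 1 window, against 11.5%. The 27025 genes were not limited to the 11483 tested, and a gene with more start sites had more windows to match. The median log2 fold change was −0.39 for the 20 genes with either CHR form and −0.44 for the 18 without, a difference that was not tested. The 9 genes with no window include 3 of the 5 DEGs, *Foxm1*, *Incenp* and *Kif20a*, so these medians do not cover the whole list. A match is a description of the letters in the window and not a bound site.

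The windows below show the most lowered gene, a lowered passenger gene, the B-type cyclin estimated higher and the most abundant member in CPM. They run from 250 bases to 1 base before the RefSeq start, 5′ to 3′ on the strand of the gene, and lie before the first base of the GENCODE gene model. Capitals mark the CHR forms and the CCAAT box as found on either strand. They are *Mybl2* at chr2:163054385-163054634 (plus strand), *Birc5* at chr11:117848987-117849236 (plus strand), *Ccnb2* at chr9:70421555-70421804 (minus strand) and *Top2a* at chr11:99024190-99024439 (minus strand).
Mybl2: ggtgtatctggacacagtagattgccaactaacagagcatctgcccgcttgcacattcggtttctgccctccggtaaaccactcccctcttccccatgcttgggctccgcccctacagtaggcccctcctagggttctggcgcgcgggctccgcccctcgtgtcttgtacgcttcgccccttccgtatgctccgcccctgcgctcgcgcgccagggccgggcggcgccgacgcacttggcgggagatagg
Birc5: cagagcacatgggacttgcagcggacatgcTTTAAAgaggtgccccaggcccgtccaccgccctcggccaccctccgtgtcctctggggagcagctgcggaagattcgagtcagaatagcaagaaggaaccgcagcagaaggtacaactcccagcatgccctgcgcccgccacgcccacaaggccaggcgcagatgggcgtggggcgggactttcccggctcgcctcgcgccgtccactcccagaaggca
Ccnb2: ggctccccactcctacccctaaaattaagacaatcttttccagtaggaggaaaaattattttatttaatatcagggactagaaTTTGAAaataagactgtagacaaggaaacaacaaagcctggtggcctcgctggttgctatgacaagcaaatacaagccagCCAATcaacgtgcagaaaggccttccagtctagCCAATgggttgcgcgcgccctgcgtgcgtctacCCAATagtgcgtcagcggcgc
Top2a: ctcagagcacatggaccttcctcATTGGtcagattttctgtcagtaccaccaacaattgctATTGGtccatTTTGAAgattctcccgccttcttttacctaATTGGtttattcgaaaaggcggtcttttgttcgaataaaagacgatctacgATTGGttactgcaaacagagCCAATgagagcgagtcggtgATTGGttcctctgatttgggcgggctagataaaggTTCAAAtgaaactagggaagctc

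The *Mybl2* window held none of the letters searched, the *Birc5* window 1 CHR form, the *Ccnb2* window 1 CHR form and 3 CCAAT boxes, and the *Top2a* window 2 CHR forms and 6 CCAAT boxes. These 4 genes were picked with their fold changes known, and nothing on the elements is read from them. Shorter stretches around a CHR form are given for 2 further genes, because the GENCODE model starts upstream of the RefSeq start there and the stretch lies partly or wholly in its first exon. They are *Ccnb1* at chr13:100786511-100786540 and *Cdc20* at chr4:118437344-118437373, both on the minus strand.
Ccnb1: agcggcccggggTTTAAAcctaagcccggc
Cdc20: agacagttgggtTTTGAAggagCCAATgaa

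Among the 8 genes of mitotic entry, 7 had lower estimates and 1 a higher one, with a median of −0.37 on the log2 scale, and no gene passed the FDR threshold. *Ccna2* encodes cyclin A2, which drives S phase and the entry into mitosis. It was at 228 and 306 CPM in control replicates 1 and 3 and at 165 and 186 CPM in TRC replicates 1 and 3. The groups did not overlap, with an estimate of −0.61 (SE 0.23, FDR = 0.0671), and DESeq2 called it lower with an FDR of 0.0457.

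The B-type cyclins had estimates of opposite sign, neither was called, and the difference between them was not tested. *Ccnb1*, which encodes the main mitotic partner of CDK1, was at 206 and 274 CPM in control replicates 1 and 3 and at 171 and 177 CPM in TRC replicates 1 and 3. Both TRC libraries were lower, but the distance to control replicate 1 was smaller than the distance between the control libraries (−0.47, interval −0.90 to −0.03, FDR = 0.18). *Ccnb2*, which encodes a second B-type cyclin found mainly at the Golgi, was at 160 and 162 CPM in control replicates 1 and 3 and at 179 and 176 CPM in TRC replicates 1 and 3. All 4 libraries were close, with the TRC libraries slightly higher (0.14, interval −0.22 to 0.50, FDR = 0.739). *Ccnb1* and *Ccnb2* have processed pseudogenes in the annotation, *Ccnb1-ps* and *Ccnb2-ps*, and reads that align to a gene and its copy equally well were not assigned.

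*Cdk1*, the kinase that drives mitosis, was at 208 and 285 CPM in control replicates 1 and 3 and at 182 and 203 CPM in TRC replicates 1 and 3. TRC replicate 3 almost reached control replicate 1 (−0.36, interval −0.81 to 0.10, FDR = 0.346). *Plk1*, a kinase that promotes entry, centrosome maturation and cytokinesis, was at 133 and 175 CPM in control replicates and at 133 and 102 CPM in TRC replicates 1 and 3. TRC replicate 1 matched control replicate 1 and only TRC replicate 3 lay clearly lower (−0.39, SE 0.24, FDR = 0.302). Of the remaining entry genes, *Aurka*, the centrosomal Aurora kinase, had an estimate of −0.50 (FDR = 0.121) with separate groups. The CDK1-activating phosphatases *Cdc25c* and *Cdc25b* had estimates of −0.32 and −0.03, and the libraries of *Cdc25b* were intermixed between 110 and 127 CPM.

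**Figure D3:**
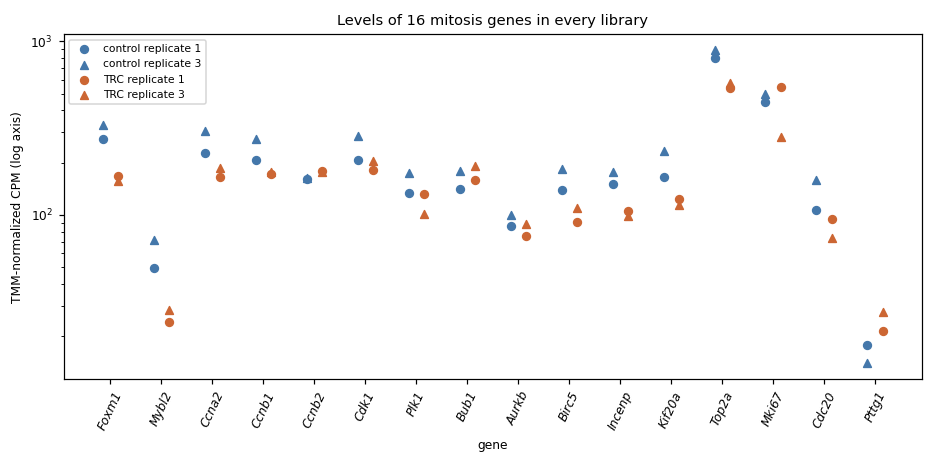
TMM-normalized CPM (log axis) of 16 mitosis genes in control (blue) and TRC (orange) libraries, with circles for replicate 1 and triangles for replicate 3. The groups are widest apart for *Foxm1* and *Mybl2*, close together for *Ccnb2*, reversed for *Pttg1*, and the TRC libraries of *Mki67* lie on both sides of the control libraries.

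The spindle checkpoint genes had a median of −0.38, with 4 of 5 estimates lower and none called. *Ttk* encodes MPS1, the kinase that starts checkpoint signalling at unattached kinetochores. It was at 36.3 and 47.9 CPM in control replicates 1 and 3 and at 33.8 and 28.2 CPM in TRC replicates 1 and 3. The groups were separate by a narrow margin at replicate 1 (−0.44, SE 0.26, FDR = 0.256). *Bub1*, a kinase that builds the checkpoint platform at the kinetochore, was at 142 and 179 CPM in control replicates 1 and 3 and at 160 and 191 CPM in TRC replicates 1 and 3. Its libraries alternated between the groups (0.13, SE 0.22, FDR = 0.775), and the sign turned without control replicate 1 or without TRC replicate 3, to −0.03 and −0.01. The effector genes *Bub1b* (BUBR1) and *Mad2l1* (MAD2) had separate groups and estimates of −0.38 and −0.43. *Bub3*, the partner of both BUB1 and BUBR1, had an estimate of −0.05 with overlapping groups.

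All 7 kinetochore genes had lower estimates, with a median of −0.29, and none was called. *Cenpe* encodes the kinesin that moves chromosomes to the spindle equator. It was at 161 and 153 CPM in control replicates 1 and 3 and at 128 and 83.0 CPM in TRC replicates 1 and 3. Both TRC libraries were lower, TRC replicate 3 much more so than TRC replicate 1 (−0.57, SE 0.25, FDR = 0.117), and without TRC replicate 1 the estimate was −0.93 with an FDR of 0.0459. *Ndc80*, *Nuf2*, *Spc24* and *Spc25* encode the 4 subunits of the NDC80 complex, the microtubule-binding arm of the kinetochore, and had estimates of −0.50, −0.29, −0.50 and −0.17, each with separate groups. *Cenpa*, the histone variant that marks the centromere, and *Cenpf*, a large protein of the outer kinetochore, had estimates of −0.10 and −0.05 with overlapping groups.

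The 5 spindle motor and microtubule-binding genes had lower estimates, with a median of −0.42, and none was called. *Kif4* encodes a chromokinesin that works on chromosome arms and the central spindle. It stood at 94.5 and 115 CPM in control replicates 1 and 3 and 72.9 and 69.2 CPM in TRC replicates 1 and 3. The groups were separate (−0.56, SE 0.21, FDR = 0.0727), and DESeq2 called the gene lower with an FDR of 0.0496. It has a transcribed pseudogene, *Kif4-ps*. *Kif11* (Eg5), the motor that pushes spindle poles apart, and *Hmmr*, a spindle assembly factor, had estimates of −0.43 and −0.42, and *Tpx2*, the activator of Aurora A, −0.31, all with separate groups. *Kif2c* (MCAK), a microtubule depolymerase, had the same estimate of −0.31, but TRC replicate 1 lay above control replicate 1.

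The chromosomal passenger complex corrects wrong attachments and later directs cytokinesis. Of its 4 genes 2 fell, where 7.05% of all genes tested were called lower. *Birc5* (ENSMUSG00000017716, chr11:117849251-117855743) encodes survivin, which brings the complex to centromeres. It was at 139 and 184 CPM in control replicates 1 and 3 and at 90.8 and 110 CPM in TRC replicates 1 and 3. TRCs held 62.2% of the control level, with separate groups (−0.69, SE 0.24, FDR = 0.0357). The call was lost without control replicate 3 (FDR = 0.341), TRC replicate 1 (FDR = 0.334) or TRC replicate 3 (FDR = 0.0992), and the quasi-likelihood test gave an FDR of 0.072.

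*Incenp* (ENSMUSG00000024660, chr19:9872296-9899551) encodes the scaffold that holds the complex together and activates Aurora B. It stood at 150 and 176 CPM in control replicates 1 and 3 and 106 and 98.6 CPM in TRC replicates 1 and 3. The groups were well separated, at 62.5% of the control level (−0.68, SE 0.20, FDR = 0.026). Its call was lost without control replicate 3 (FDR = 0.21), TRC replicate 1 (FDR = 0.143) or TRC replicate 3 (FDR = 0.219), and under the quasi-likelihood test (FDR = 0.051).

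The kinase of the same complex stood apart from its partners in estimate. *Aurkb*, which encodes Aurora B, was at 86.3 and 100.2 CPM in control replicates 1 and 3 and at 75.6 and 88.7 CPM in TRC replicates 1 and 3. The libraries overlapped, as TRC replicate 3 exceeded control replicate 1 (−0.18, interval −0.61 to 0.24, FDR = 0.656). *Cdca8* (borealin), the fourth subunit, had an estimate of −0.49 (FDR = 0.113) with separate groups. The difference between *Aurkb* and the other subunits was not tested.

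The genes of the central spindle and cytokinesis were the largest role in which every gene had separate groups, all 5 of them, with a median of −0.55. *Kif20a* encodes MKLP2, the motor that carries the passenger complex to the midzone. It was at 165 and 232 CPM in control replicates 1 and 3 and at 124 and 114 CPM in TRC replicates 1 and 3. Both TRC libraries were below both control libraries, at 60.02% of the control level (−0.74, SE 0.24, FDR = 0.0227). The call was lost without control replicate 3 (FDR = 0.341), TRC replicate 1 (FDR = 0.133) or TRC replicate 3 (FDR = 0.209), and under the quasi-likelihood test (FDR = 0.0638). *Ect2*, the exchange factor that activates RhoA at the division plane, had an estimate of −0.60 and just missed the threshold (FDR = 0.05004), and DESeq2 called it lower with an FDR of 0.0179. *Anln* (anillin) and *Kif23* (MKLP1) had estimates of −0.55 and −0.54, and *Prc1*, which bundles the midzone microtubules, of −0.39. The exons of *Kif20a* overlap those of *Cdc23* on the other strand, and the same holds for 7 more of the 47 genes, *Ccna2*, *Cdc20*, *Cdc25b*, *Cdca8*, *Kif4*, *Ncapg* and *Prc1*, with an expressed gene on the opposite strand. The libraries were stranded, but the strand setting of the counting is not given, so a share of opposite-strand reads in these 8 genes cannot be told apart.

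**Figure D4:**
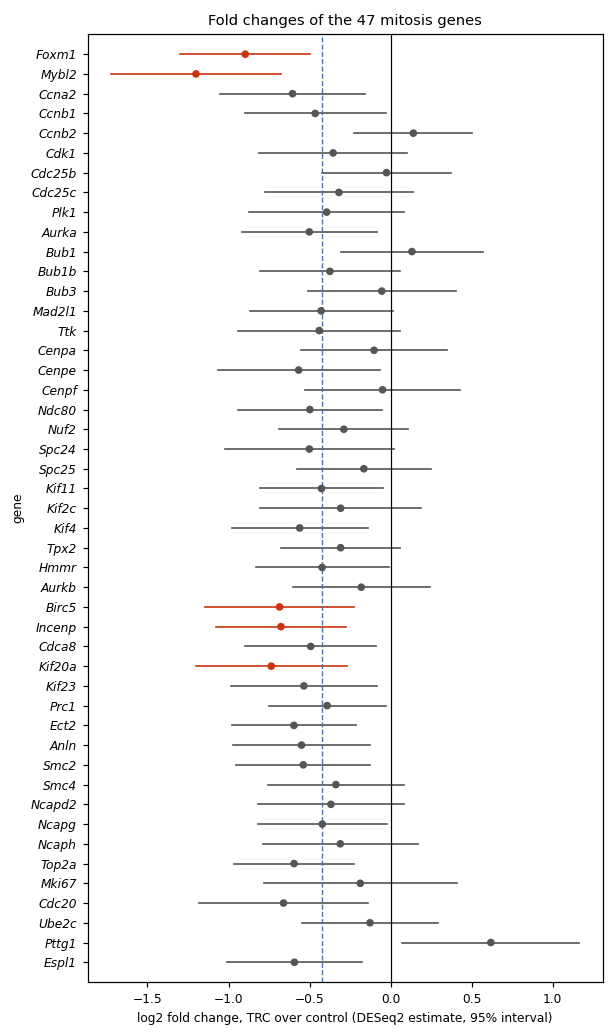
DESeq2 log2 fold change of TRC over control with its 95% interval for each of the 47 genes, in red for the 5 with an edgeR FDR under 0.05, with the median of −0.42 as a dashed line. Most intervals lie left of 0 or reach across it, that of *Mybl2* is farthest left, and that of *Pttg1* lies right of 0.

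All 7 genes of condensin and the mitotic chromosome had lower estimates, with a median of −0.37, and none was called. *Top2a* encodes topoisomerase II alpha, which untangles sister chromatids. It was at 800 and 891 CPM in control replicates 1 and 3 and at 539 and 579 CPM in TRC replicates 1 and 3. The groups were clearly separate, with an estimate of −0.60 (SE 0.19, FDR = 0.054), and DESeq2 called it lower with an FDR of 0.0144. The condensin I subunits did not differ beyond the FDR threshold, with estimates of −0.54 for *Smc2*, −0.42 for *Ncapg*, −0.37 for *Ncapd2*, −0.34 for *Smc4* and −0.31 for *Ncaph*, of which *Ncaph* had overlapping groups.

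*Mki67* encodes Ki-67, the coat protein of mitotic chromosomes used in pathology as a proliferation marker, and it had the largest SE of the 47 genes. It was at 445 and 496 CPM in control replicates 1 and 3 and at 545 and 280 CPM in TRC replicates 1 and 3. TRC replicate 1 was the highest of the 4 libraries and TRC replicate 3 the lowest (−0.19, SE 0.30, FDR = 0.737). Without TRC replicate 3 the estimate was 0.21 and without TRC replicate 1 it was −0.76, with neither called.

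The 4 anaphase genes had a median of −0.36, with none called, and spanned from a decrease to the largest increase of the list. *Cdc20*, the activator that turns the anaphase-promoting complex on its mitotic substrates, was at 107 and 158 CPM in control replicates 1 and 3 and at 94.1 and 73.7 CPM in TRC replicates 1 and 3. Both TRC libraries were lower, but control replicate 3 was far above control replicate 1 (−0.66, SE 0.27, FDR = 0.0629). Without control replicate 1 the gene was called (FDR = 0.00761). *Ube2c*, the ubiquitin-conjugating enzyme of the complex, had an estimate of −0.13 with overlapping groups.

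Separase and its inhibitor had estimates of opposite sign. *Espl1* encodes separase, the protease that cuts cohesin at anaphase, and was at 86.3 and 95.9 CPM in control replicates 1 and 3 and at 64.6 and 56.0 CPM in TRC replicates 1 and 3. The groups were separate (−0.59, SE 0.21, FDR = 0.0506), and DESeq2 called it lower with an FDR of 0.033. *Pttg1* encodes securin, which blocks separase until anaphase. It was at 17.8 and 13.97 CPM in control replicates 1 and 3 and at 21.4 and 27.4 CPM in TRC replicates 1 and 3. The TRC libraries were higher without overlap, and its control level in CPM was the lowest of the 47 genes (0.62, interval 0.07 to 1.16, FDR = 0.174). The interval excludes 0 while the FDR over all genes tested misses the threshold.

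Scaled by the exon length of the gene, as CPM per kilobase, the mean levels in control cells ranged from 7.52 for *Cdc25c* to 105 for *Ccnb2*, with a median of 32.5, and the median in TRCs was 25.2. After *Ccnb2*, the highest control levels per kilobase were those of *Top2a* (93.8), *Cdc20* (71.0) and *Plk1* (70.0). In TRCs these 4 genes were at 116, 62.0, 44.9 and 53.3 CPM per kilobase in the same order, so *Ccnb2* led in both groups. *Cdc25c*, *Pttg1*, *Ttk* and *Cenpf* were lowest in control cells, at 9.76 or less.

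Other genes of mitosis, in 6 further lists of 106 genes, also lay lower, with a median of −0.36 on the log2 scale. Of these, 22 fell (20.8%, against 7.05% of all genes tested) and none rose (against 8.81%). At an unadjusted p under 0.05 there were 35 lower (33.02%, against 13.2%) and 0 higher (against 1703 of the 11483 genes tested). DESeq2 called 25 of them lower (23.6%, against 8.24%) and the quasi-likelihood test 9 (8.49%, against 4.24%). With the replicate number fitted as a block, the quasi-likelihood test called 1 of the 106 lower, against 308 of the 11483 genes tested. Among 31 other kinetochore genes 8 fell (median −0.54), including *Cenpn* (−0.93, FDR = 0.00585), *Ska1* (−0.88, FDR = 0.0152), *Cenpi* (−0.81, FDR = 0.0192) and *Zwilch* (−0.68, FDR = 0.0229). The first of these binds CENP-A nucleosomes, and SKA1 helps the kinetochore hold on to microtubules. The levels of *Cenpn* were 34.3 and 34.5 CPM in control replicates 1 and 3 and 18.3 and 17.7 CPM in TRC replicates 1 and 3, so its replicates were almost equal within each group.

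Over all genes tested, 7.05% were called lower, and the small counts of the lists below are given as values only. Among 17 genes of the anaphase-promoting complex 2 fell (median −0.16). They were the subunit gene *Anapc16* (−0.75, FDR = 0.0227) and *Fbxo5*, which encodes the inhibitor EMI1 (−1.01, FDR = 0.000408). *Fbxo5* was at 59.0 and 63.8 CPM in control replicates 1 and 3 and at 32.9 and 28.0 CPM in TRC replicates 1 and 3, with a wide gap between the groups. Among 14 cohesin genes 2 fell (median −0.28). One was *Sgol1*, the gene of shugoshin, which protects centromeric cohesin (−0.88, FDR = 0.00298), and the other *Cdca5*, the gene of sororin, which stabilises cohesin (−0.75, FDR = 0.0459).

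Of 29 other spindle and cytokinesis genes 5 fell (median −0.39), including the kinesin gene *Kif15* (−0.68, FDR = 0.0231), *Plk4*, the kinase of centriole duplication (−0.65, FDR = 0.0265), the augmin subunit gene *Haus6* (−0.68, FDR = 0.0291) and *Nek2*, a centrosomal kinase gene (−0.73, FDR = 0.0391). Of 12 other entry regulators 4 fell (median −0.39). *Pkmyt1* encodes a kinase that inhibits CDK1 (−0.90, FDR = 0.00556) and *Cdc25a* a phosphatase that activates CDKs (−0.89, FDR = 0.013), and *Mastl* (−0.73, FDR = 0.0261), the Greatwall kinase, and *Gtse1* (−0.77, FDR = 0.0285) were the others. Of 3 condensin II genes *Ncapg2* fell (−0.88, FDR = 0.00404), with a median of −0.36. All these counts stand beside 7.05% of all genes tested that were called lower.

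**Figure D5:**
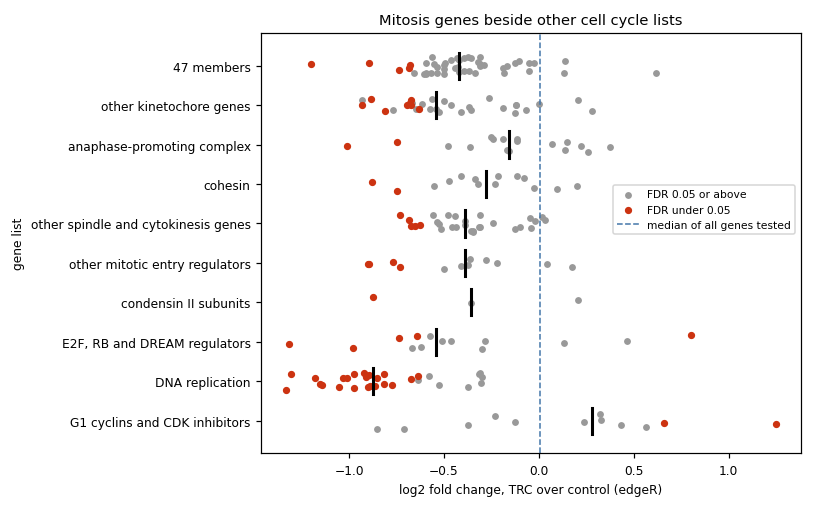
Log2 fold change of TRC over control (edgeR) for each gene tested of the 47 mitosis genes and of 9 other cell cycle lists, in red where the FDR was under 0.05, with list medians as black bars and the median of all genes tested as a dashed line. DNA replication has the lowest median (−0.88) and G1 cyclins and CDK inhibitors, a list that also holds CDKs, a positive one (0.28). The 47 mitosis genes lie at −0.42.

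Upstream of mitosis, 22 of 30 DNA replication genes fell (73.3%, against 7.05% of all genes tested) and none rose (against 8.81%), with a median of −0.88, against −0.42 for the 47 mitosis genes. The difference between these medians was not tested. *Cdt1* (−1.33, FDR = 1.15e-06), *Mcm10* (−1.15, FDR = 6.82e-05) and *Cdc6* (−1.30, FDR = 0.000394) were among those with the smallest p. Control replicate 3 was above control replicate 1 in 29 of these 30 genes, with a median log2 difference of 0.56. Of 14 genes of the E2F, RB and DREAM regulators, which repress or activate S and M phase genes, 4 fell and 1 rose (median −0.54). *E2f7* (−1.32, FDR = 0.00115) and *E2f8* (−0.98, FDR = 0.00355), the genes of atypical E2F repressors, and *Lin54* (−0.74, FDR = 0.0173), the gene of the MuvB subunit that binds the CHR, were lower. *Rb1* was higher (0.80, FDR = 0.029). Of 12 genes tested, out of 13, in the list of G1 cyclins, their CDKs and CDK inhibitors, none fell and 2 rose (median 0.28). *Cdkn1b*, which encodes the CDK inhibitor p27, was at 142 and 133 CPM in control replicates 1 and 3 and at 306 and 350 CPM in TRC replicates 1 and 3. Both TRC libraries were far above both control libraries (1.25, FDR = 3.46e-06), and *Cdkn2d* also rose (0.66, FDR = 0.022).

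Of all genes tested, 7.05% were called lower and 8.81% higher. In the 9 other lists together, 48 of 162 genes tested fell, 22 of them in DNA replication, and 3 rose. The number that fell was 9 without control replicate 3, 11 without TRC replicate 1 and 6 without TRC replicate 3, and 25 with the quasi-likelihood test. Of the genes named from these lists, *Cdt1*, *Mcm10* and *Cdkn1b* kept an FDR under 0.05 whichever library was omitted, and the others exceeded it in at least 1 of the 4 omissions.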

How the data were processed

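Poly(A) RNA was sequenced in 4 libraries, 2 per group. The deposited files hold raw, whole-number counts for each Ensembl gene. To make them, the authors trimmed single-end reads of stranded libraries (Trimmomatic 0.35), aligned them to GRCm38 with TopHat2 2.1.0 (Bowtie2 2.2.6, SAMtools 1.3) and counted them with htseq-count, whose mode and strand setting are not given in the sources used here. Alignments that were not unique (15.2% to 25.2% per library) were not assigned. Totals that are not genes were removed.

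Groups follow the sample labels. A gene was kept with at least 1 CPM in at least 2 samples, as the study's filter was read here. This left 11483 genes, which is not the number the study tested. Counts were TMM-scaled and compared with edgeR 4.0.16 (exact test, default common and tagwise dispersions, prior count 0.125, R 4.3.3). DESeq2 1.42.0 gave SEs and intervals. Pair differences used CPM plus 0.5. At these depths 3 counts corresponded to 0.0689 to 0.0835 CPM, a floor that covers counting error only. A first run shrank tagwise dispersions toward the common value and called 2 members, and edgeR's default was taken afterwards. The study names tagwise dispersions but not how they were shrunk, so which of the settings it used is not known.

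Members were matched by symbol to GENCODE M21 (GRCm38). The members and the other gene lists were chosen with earlier results of these data known. Every member was described by role, with library values for members called, for 10 members set by name and for the largest increase and decrease in each role, and up to 4 called genes by smallest p from each other list. Some genes that this rule selects are left out of the text. Promoters came from RefSeq (GRCm38.p6). Alternatives were other filters, scalings, dispersions and tests, a replicate block, and each library left out. Procedures were tested on simulated data. Plots used matplotlib 3.10.9.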

Additional observations from a re-analysis of the deposited data

How the results depend on the processing

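The direction of every one of the 47 members held under the other filters, scalings, dispersions and tests, and turned only where a library was left out. Over the 4 omissions the log2 fold change ran from −0.14 to 0.058 for *Cdc25b*, −0.028 to 0.31 for *Bub1*, −0.27 to 0.20 for *Bub3*, −0.26 to 0.076 for *Cenpa*, −0.27 to 0.20 for *Cenpf*, −0.76 to 0.21 for *Mki67* and −0.27 to 0.025 for *Ube2c*. The number of members called lower (5) was unchanged under the other 3 filters and DESeq2 size factors. It was 9 with library size only, 8 with a trended dispersion, 10 with DESeq2's Wald test and 2 with edgeR's quasi-likelihood test. It was also 2 with tagwise dispersions shrunk toward the common value, the setting of the first run. The default that gave 5 was taken after that run. With single libraries left out it ranged from 1 to 9, the lone library of a group being assumed to vary like the other group. The cause of these changes was not tested. The median over members ranged from −0.56 to −0.26 with a library left out. Over all genes, 810 were lower and 1012 higher, against 487 and 567 with the quasi-likelihood test and ranges of 269 to 854 and 500 to 1078 with a library left out. Of the 9 other lists, 48 genes were lower, 25 with the quasi-likelihood test, 29 with dispersions shrunk toward the common value and between 6 and 47 with a library left out. Of these lists 3 genes were higher, against 1 without a filter, 1 with dispersions shrunk toward the common value and 1 to 2 with a library left out. The labels do not say that a replicate number marks a shared preparation, and libraries of the same number deviated from their groups almost independently (r = 0.02666 across genes, which are not independent replicates). With the replicate number as a block, the quasi-likelihood test called 2 members lower, 308 genes lower and 477 higher, and 12 lower and 1 higher in the other lists. Of these 12, 10 were DNA replication genes and 1 was in the 6 other mitosis lists. With 2 libraries per group and a biological coefficient of variation of 21.2%, the spread between libraries and not the depth limits these comparisons.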

Other observations

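A few ratios of counts within a library, chosen after the values were seen, set members against a partner in the same process and do not depend on the scaling between libraries. With 2 libraries per group no exact permutation test can give a two-sided p below 0.333, so they are given as values only. *Ccnb2* counts over *Ccnb1* counts were 0.778 and 0.591 for control replicates 1 and 3, against 1.05 and 0.996 for TRC replicates 1 and 3. *Pttg1* counts over *Espl1* counts, securin over separase, were 0.207 and 0.146 for control replicates 1 and 3, against 0.331 and 0.489 for TRC replicates 1 and 3. Both ratios were higher in each TRC library than in each control library.

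*Bub1* counts over *Bub1b* counts were 0.970 and 0.971 for control replicates 1 and 3, against 1.17 and 1.62 for TRC replicates 1 and 3. The control libraries were almost equal and both TRC libraries were higher, by unequal amounts. *Hjurp* counts over *Cenpa* counts, the chaperone that loads the centromeric histone over that histone, were 3.27 and 2.45 for control replicates 1 and 3, against 2.92 and 4.55 for TRC replicates 1 and 3, with overlapping groups.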
